A study of Mus musculus with 20 samples.

Results

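The 9 genes described here mark microglia and other macrophages, and they were followed in whole mouse retina: 4 homeostatic genes (Cx3cr1, P2ry12, Tmem119 and Csf1r), 1 gene carried by microglia in every state (Aif1) and 4 activation and lysosomal genes (Trem2, Tyrobp, Cd68 and Lyz2). They were taken by name, with earlier results of these data known, and make 9 of the 35006 genes in the count files. All 9 were present in all 20 libraries and all 9 passed the filter on low counts in every comparison.

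Each library was made from polyadenylated RNA of a single retina of a wild-type C57BL/6J mouse. Young controls (4 mice, 119 days old, 2 labelled male and 2 female) and old controls (4 mice, 668 days old, labelled male) drank plain water. Young NACET mice (6 mice, 4 males of 129 days and 2 females of 119 days) and old NACET mice (6 males, 2 each of 668, 581 and 574 days) received N-acetylcysteine ethyl ester (NACET), an esterified form of N-acetylcysteine that enters cells more readily, with their drinking water over 5 days, at a daily dose of 50 mg/kg. The comparisons asked how the genes differ with age and whether NACET changes them in young and in old retinas.

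Microglia are the resident macrophages of the retina, where their processes lie mainly in the plexiform layers and survey synapses and neurons. In the undisturbed state they carry receptors that sense neuronal signals, such as CX3CR1 and P2RY12, and depend on signalling through CSF1R for survival. When they meet debris or dying cells they raise TREM2, its adaptor TYROBP and lysosomal proteins that serve engulfment and digestion.

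The libraries held 17.7 to 31.1 M gene counts (M, 1e+06). Levels are given in CPM, a gene's counts scaled to 1e+06 gene counts of the library. The 8 rod genes summed to 79422 to 95405 CPM in young controls, and the 9 microglia genes together took only 18.0 to 56.3 CPM in any library. Old control replicate 2 stood apart with 171 CPM of the corneal epithelial keratin Krt5 and 47.6 CPM of the haemoglobin gene Hbb-b1, against 2.83 to 20.8 and 3.05 to 6.23 CPM in the other old controls. Old control replicate 4, labelled male, held 59555 counts of the female-specific Xist RNA, and young NACET replicate 6 carries an age of 119 days in its title and a batch tag of 129 days. For members whose fitted change moved by over 1.5 times without old control replicates 2 and 4, that value is given beside it.

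Markers of other blood and immune cells ranged from undetected to levels above those of any member. Ly6c2 and Ccr2, which define inflammatory monocytes, and S100a8 and S100a9, which define neutrophils, reached at most 3 counts in any library. None of the 8 neutrophil genes passed the filter on low counts. Of the 9 T and B cell genes, none passed it in a comparison of 2 groups and 1 passed it in the fit of all 20 libraries. The pan-leukocyte gene Ptprc was at 0.35 to 1.13 CPM and the perivascular macrophage gene Cd163 at 0 to 0.744 CPM, where the member Aif1 was at 0.24 to 1.07 CPM. Cd74, the invariant chain of antigen-presenting cells, reached 2.65 CPM (57 counts), Cbr2 of the perivascular macrophage list reached 29.7 CPM (617 counts) in 1 young NACET library, and the 8 dendritic cell genes summed to 5.09 to 12.0 CPM. The part of such cells in the members' levels was not tested. In bulk tissue, fewer cells of a type and less RNA per cell cannot be told apart, and this holds for every level below.

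The genes are all protein-coding, with positions given in mm9 (GENCODE M1). Cx3cr1 is at chromosome 9, 119957811 to 119977400, P2ry12 at chromosome 3, 59020193 to 59066753 and Tmem119 at chromosome 5, 114243738 to 114250525. Aif1 is at chromosome 17, 35307936 to 35313013, and Trem2 on the same chromosome at 48485726 to 48493472. Tyrobp is at chromosome 7, 31198807 to 31202596, Cd68 at chromosome 11, 69477715 to 69479655, and Lyz2 at chromosome 10, 116714390 to 116719377. The exons of Csf1r share 871 bases (16.7%) with Hmgxb3 on the opposite strand, and counting ignored strand. The study's counting mode (intersection-nonempty) gives reads lying in exons of both genes to neither. If the counting annotation held this overlap, the level of Csf1r lacks such reads. Of the 50-base windows of the Lyz2 transcript, 15.4% also occur in its neighbour Lyz1, which itself had at most 11 counts in any library.

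The upstream sequences of 3 members that were called in the comparisons below are shown because all 3 were called in old against young NACET mice and because myeloid factors are known to act close to their start sites. RefSeq's promoter table (GRCm38.p6) held 6 of the 9 members, and each sequence was found once in mm9. Capitals mark the core letters GAGGAA, bound by the myeloid factor PU.1, and TGTGGT, bound by RUNX factors, searched on both strands in the 250 bases upstream of the RefSeq start.
Cx3cr1 (chr9:119977415-119977664, minus strand): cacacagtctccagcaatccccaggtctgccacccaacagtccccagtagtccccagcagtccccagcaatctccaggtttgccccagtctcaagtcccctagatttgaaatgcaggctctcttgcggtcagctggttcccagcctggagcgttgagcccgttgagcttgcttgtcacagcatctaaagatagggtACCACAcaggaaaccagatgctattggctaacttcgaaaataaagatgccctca
Trem2 (chr17:48485476-48485725, plus strand): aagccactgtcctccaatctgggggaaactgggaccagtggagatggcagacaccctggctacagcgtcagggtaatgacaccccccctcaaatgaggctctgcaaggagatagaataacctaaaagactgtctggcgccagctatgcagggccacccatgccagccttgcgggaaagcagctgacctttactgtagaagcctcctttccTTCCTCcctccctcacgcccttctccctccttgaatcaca
Lyz2 (chr10:116719378-116719578, minus strand): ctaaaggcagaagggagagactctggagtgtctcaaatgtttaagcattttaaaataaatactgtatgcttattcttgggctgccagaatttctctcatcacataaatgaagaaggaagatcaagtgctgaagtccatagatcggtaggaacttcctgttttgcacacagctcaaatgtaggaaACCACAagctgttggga
In these, ACCACA is TGTGGT read from the other strand and TTCCTC is GAGGAA read from the other strand. The PU.1 letters occurred upstream of Trem2, Aif1 and Cd68 and the RUNX letters upstream of Cx3cr1 and Lyz2, while P2ry12 held neither. In all 32851 promoters of the table, 23.2% held the PU.1 letters and 14.0% the RUNX letters, so 3 of 6 and 2 of 6 members are a description and no test. The last 49 bases of the Lyz2 window lie inside the annotated gene and are not shown.

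In young control retinas the members were scarce, and their order was set per length, as CPM per kilobase of the longest protein-coding transcript. Csf1r, the receptor for the survival factors CSF1 and IL-34, stood highest with 2.14 ± 0.39 CPM per kilobase (SD, n = 4), next to Tyrobp with 2.00 ± 0.50. Lyz2, Trem2 and Cd68 followed at 1.66 ± 1.17, 1.40 ± 0.17 and 1.10 ± 0.29, and Cx3cr1, P2ry12, Tmem119 and Aif1 closed the order at 0.920 ± 0.148, 0.787 ± 0.281, 0.698 ± 0.059 and 0.636 ± 0.204. The ranges of all neighbours in this order overlapped.

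In old controls Lyz2 came first on the same per-length scale (9.91 ± 7.26 CPM per kilobase, SD, n = 4) and Tyrobp next (3.49 ± 0.42), with Csf1r (2.41 ± 0.18) and Trem2 (2.31 ± 0.62) behind them. Tyrobp exceeded Csf1r in 4 of 4 old controls without overlap. In the old NACET group Tyrobp (4.08 ± 0.78 CPM per kilobase, SD, n = 6) and Lyz2 (3.94 ± 1.72) led with overlapping ranges, and Csf1r stood above Cx3cr1 in 6 of 6 libraries without overlap. Aif1 was last in all 4 groups. With all annotated exons as the length, Trem2, whose exons then span 4946 bases against 1088 in its longest coding transcript, fell behind Aif1 in young controls, and Tyrobp (2.00) stood ahead of Csf1r (1.93) there.

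The spread was set against counting noise. Aif1 had 5 to 24 counts per library, and its coefficient of variation was 23.6% to 32.1% in 3 groups and 56.2% in young NACET libraries, where counting alone gives 26.6% to 31.4%. Csf1r, with 180 to 391 counts, varied by 7.64% to 18.3% where counting gives 6.19% to 6.72%. Lyz2 varied by 43.8% to 73.2% within groups where counting gives 5.93% to 15.1%, so its spread between mice was far above counting noise.

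**Figure D1:**
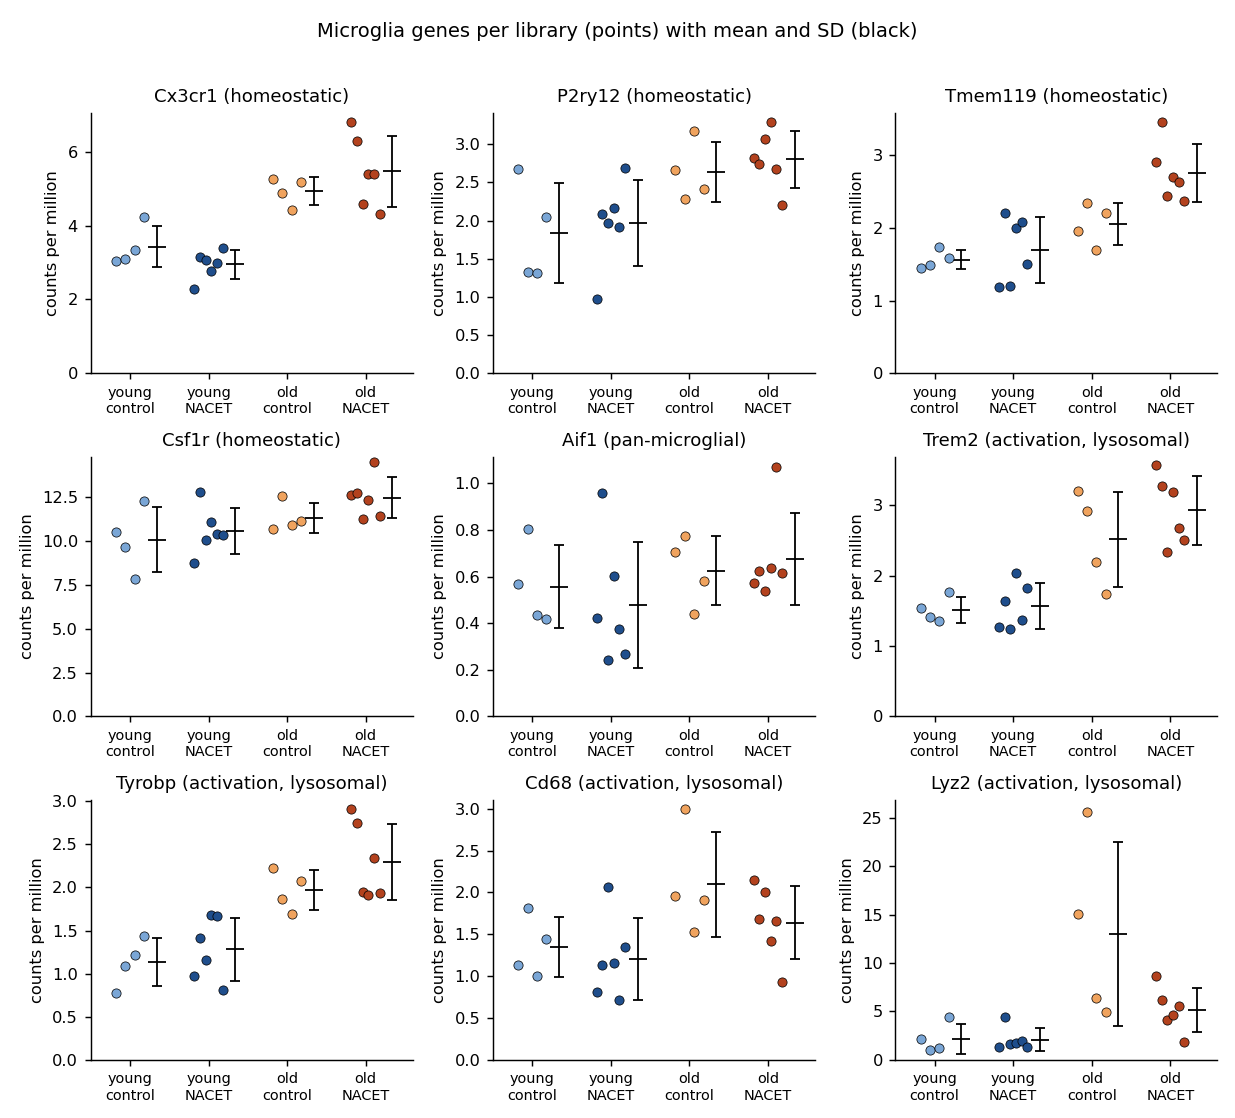
CPM of the 9 microglia genes in each library (points, in replicate order) by group, with the mean and SD in black beside them. Cx3cr1, Tyrobp and Lyz2 in the 4 old controls all lie above the 4 young controls, Aif1 overlaps throughout, and Lyz2 in old controls spreads from 4.94 to 25.6 CPM.

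The first comparison set old against young controls. By edgeR's quasi-likelihood test with Benjamini-Hochberg adjustment over all genes, 1 of 9 members was called at an adjusted p under 0.05, against 1.42% of all 16484 genes tested. At an unadjusted p under 0.05 there were 5 of 9 members and 16.3% of all genes. The member called was Lyz2, which encodes the lysozyme of macrophages and other myeloid cells. All 9 fitted changes were above 0, as were 48.2% of all genes, and their median was 0.48 on the log2 scale against -0.0068 over all genes.

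Among the homeostatic members, Cx3cr1, the receptor for the neuronal chemokine fractalkine, was at 3.04, 3.10, 3.35 and 4.23 CPM in the 4 young controls and at 5.28, 4.89, 4.43 and 5.19 CPM in the 4 old controls. The lowest old control lay just above the highest young control, so the groups did not overlap. The fitted change was 0.48 (SE 0.14, 95% interval 0.18 to 0.78, adjusted p 0.11), and the exact two-sided permutation test gave p 0.0286, the smallest it can give with 4 against 4 (adjusted over 36 such tests, 0.0935).

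P2ry12, the purinergic receptor that steers microglial processes towards released nucleotides, was at 2.68, 1.33, 1.31 and 2.05 CPM in young and 2.67, 2.28, 3.17 and 2.41 CPM in old controls. The groups overlapped through young control replicate 1, and the fitted change was 0.47 (SE 0.24, adjusted p 0.37). Tmem119, a membrane protein used to tell microglia from blood macrophages, was at 1.44, 1.49, 1.74 and 1.58 CPM in young and 1.96, 2.35, 1.70 and 2.20 CPM in old controls. Only old control replicate 3 fell within the young range, and the fitted change was 0.35 (SE 0.17, adjusted p 0.33), or 0.15 without old control replicates 2 and 4. Csf1r was at 10.5, 9.66, 7.84 and 12.3 CPM in young and 10.7, 12.6, 10.9 and 11.1 CPM in old controls. These groups overlapped widely, with a fitted change of 0.13 (95% interval -0.15 to 0.41), or 0.03 without old control replicates 2 and 4. Aif1, which encodes the actin-binding protein IBA1, showed no detectable difference at its depth (0.13, 95% interval -0.50 to 0.77, or -0.038 without old control replicates 2 and 4).

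The activation and lysosomal members had larger fitted changes. Trem2, a lipid-sensing receptor of phagocytosis, was at 1.55, 1.41, 1.35 and 1.77 CPM in young and 3.21, 2.93, 2.19 and 1.74 CPM in old controls. Old control replicate 4 fell inside the young range and the other 3 lay above it, with a fitted change of 0.68 (SE 0.21, adjusted p 0.13). Tyrobp, the adaptor that passes on the signal of TREM2, was at 0.773, 1.09, 1.22 and 1.44 CPM in young and 2.23, 1.87, 1.70 and 2.08 CPM in old controls. The groups did not overlap, and the fitted change of 0.75 (SE 0.20) had an adjusted p of 0.0937.

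Cd68, a glycoprotein of late endosomes and lysosomes, was at 1.13, 1.81, 1.00 and 1.44 CPM in young and 1.96, 2.99, 1.53 and 1.91 CPM in old controls. Old control replicate 3 fell within the young range, and the fitted change was 0.61 (SE 0.25, adjusted p 0.25). Old control replicate 2 was the highest, and the change was 0.36 without it and 0.30 without old control replicates 2 and 4. Lyz2 was at 2.11, 1.05, 1.18 and 4.37 CPM in young and 15.1, 25.6, 6.40 and 4.94 CPM in old controls. Old control replicates 1 and 2 were far above the rest, yet replicates 3 and 4 also lay above every young control. The fitted change was 2.56 (SE 0.55, 95% interval 1.35 to 3.77), a 5.90-fold higher level, with an adjusted p of 0.0461. Groups that did not overlap with old above young were found for 3 of 9 members (Cx3cr1, Tyrobp and Lyz2) and for 9.45% of all genes tested.

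The Lyz2 call rested on few mice. Without old control replicate 2 its change was 1.95 (adjusted p 0.11), and it passed the threshold in only 2 of the 8 fits that left out 1 library (those without young control replicate 4 and without old control replicate 4). Without old control replicates 2 and 4 the change was 2.24 (adjusted p 0.131), and among labelled males it was 3.03 (adjusted p 0.121). Among the 2 young and 3 old controls without Xist, which leaves out old control replicate 4, it was 3.30 and still called (adjusted p 0.036). Old controls were labelled male and the young controls were of both sexes, so age and sex are partly mixed here. Among labelled males the changes were 0.64 for Cx3cr1 and 1.01 for Tyrobp, with adjusted p of 0.164 and 0.155.

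**Figure D2:**
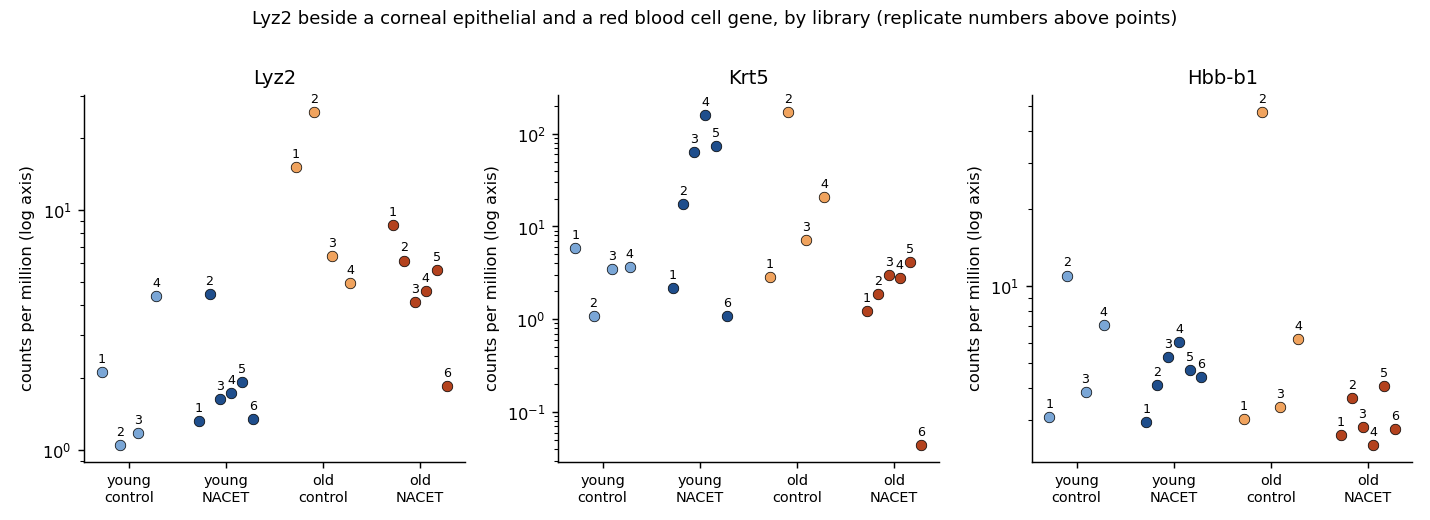
CPM of Lyz2, Krt5 (corneal epithelium) and Hbb-b1 (red blood cells) in each library on log axes, with replicate numbers above the points. Old control replicate 2 is the highest library for all 3 genes, while old control replicate 1 has 15.1 CPM of Lyz2 with 2.83 CPM of Krt5, and young NACET replicate 4 has 160 CPM of Krt5 with 1.72 CPM of Lyz2.

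Markers of tissue next to the retina moved with some libraries, as the plot of Lyz2 beside Krt5 and Hbb-b1 shows. The summed level of 8 corneal epithelial genes was 18.1 to 23.3 CPM in young controls, 16.0 to 420 in young NACET, 23.0 to 439 in old control and 13.7 to 24.9 CPM in old NACET libraries. Red blood cell genes summed to 6.44 to 21.8 CPM in young controls and 6.58 to 91.4 CPM in old controls. Their part in the Lyz2 result was not tested beyond leaving libraries out. Old control replicate 1, with 2.83 CPM of Krt5, held 15.1 CPM of Lyz2 where the highest young control held 4.37 CPM. It also held the most Cd74 of the old controls (2.23 CPM), and young control replicate 4 the most of the young (2.65 CPM). Old control replicate 2, with the most Lyz2, held 1.42 CPM of Cd74. The part of Cd74-bearing cells in the Lyz2 levels was not tested. Retinal pigment epithelium genes summed to 52.3 to 187 CPM in young controls, 107 to 221 CPM in old controls, 101 to 203 CPM in young NACET and 47.0 to 133 CPM in old NACET libraries, so the mean was higher in the old among controls and lower in the old under NACET. Monocyte genes (7 in the files, with Ly6c2, Ccr2 and Chi3l3 at 3 counts or fewer) summed to 42.8 to 53.3 CPM in young and 38.6 to 53.5 CPM in old controls. Nearly all of that was Fn1, a fibronectin gene that many cell types express, at 40.6 to 51.3 CPM in young and 35.8 to 50.9 CPM in old controls.

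The second comparison set old against young mice that had all received NACET, with 6 libraries on each side and none shared with the comparison of controls. Here 5 of 9 members rose with age, Cx3cr1, Tmem119, Trem2, Tyrobp and Lyz2, against 4.88% of all 16276 genes tested called in either direction and 2.24% called higher. All 9 fitted changes were again above 0 (49.6% of all genes), with a median of 0.65. At an unadjusted p under 0.05 there were 7 of 9 members and 21.1% of all genes. The 4 members not called were P2ry12, Csf1r, Aif1 and Cd68. The summed level of 8 rod genes moved in the same comparison, from 75657 to 93838 CPM in young NACET libraries to 62689 to 75379 CPM in old NACET libraries without overlap, and its part in the members' changes was not tested. In controls the rod sums overlapped (69927 to 84349 CPM in the old).

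Cx3cr1 lay between 2.29 and 3.39 CPM (median 3.04) in young NACET and between 4.31 and 6.82 CPM (median 5.40) in old NACET libraries. The groups did not overlap, and the change was 0.85 (SE 0.13, adjusted p 0.000918), a 1.80-fold higher level. Tmem119 ran from 1.19 to 2.20 CPM (median 1.76) in young and from 2.38 to 3.47 CPM (median 2.67) in old NACET mice. These groups did not overlap either, with a change of 0.65 (SE 0.17, adjusted p 0.0342).

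Trem2 ran from 1.25 to 2.04 CPM (median 1.51) in young and from 2.34 to 3.58 CPM (median 2.94) in old NACET mice. Every old library lay above every young one, and the change was 0.85 (SE 0.15, adjusted p 0.00357). Tyrobp ran from 0.808 to 1.68 CPM (median 1.28) in young and from 1.92 to 2.91 CPM (median 2.14) in old NACET mice. It too was without overlap, with a change of 0.78 (SE 0.18, adjusted p 0.0204). Groups without overlap and with old above young were found for 4 of 9 members and for 3.29% of all genes.

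Lyz2 ran from 1.31 to 4.46 CPM (median 1.68) in young and from 1.85 to 8.64 CPM (median 5.11) in old NACET mice. Young NACET replicate 2 and old NACET replicate 6 made the groups overlap, and the change was 1.29 (SE 0.33, adjusted p 0.0323). It was no longer called among labelled males (1.15, adjusted p 0.0953), where the other 4 called members stayed past the threshold. Csf1r ran from 8.74 to 12.8 CPM in young and from 11.3 to 14.5 CPM in old NACET mice, a change of 0.19 (95% interval 0.01 to 0.37, adjusted p 0.209), the smallest fitted among the 9 members. P2ry12, Aif1 and Cd68 had fitted changes of 0.47, 0.46 and 0.41 with adjusted p of 0.137, 0.405 and 0.354.

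When age was averaged over control and NACET mice in 1 fit of all 20 libraries, an alternative added after seeing the data, 6 of 9 members were called, the same 5 and P2ry12, against 12.8% of all 16993 genes tested. The fitted changes were then 0.70 for Cx3cr1, 0.78 for Trem2, 0.77 for Tyrobp and 1.82 for Lyz2, with adjusted p of 5.3e-05, 0.000165, 0.000523 and 0.00171.

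**Figure D3:**
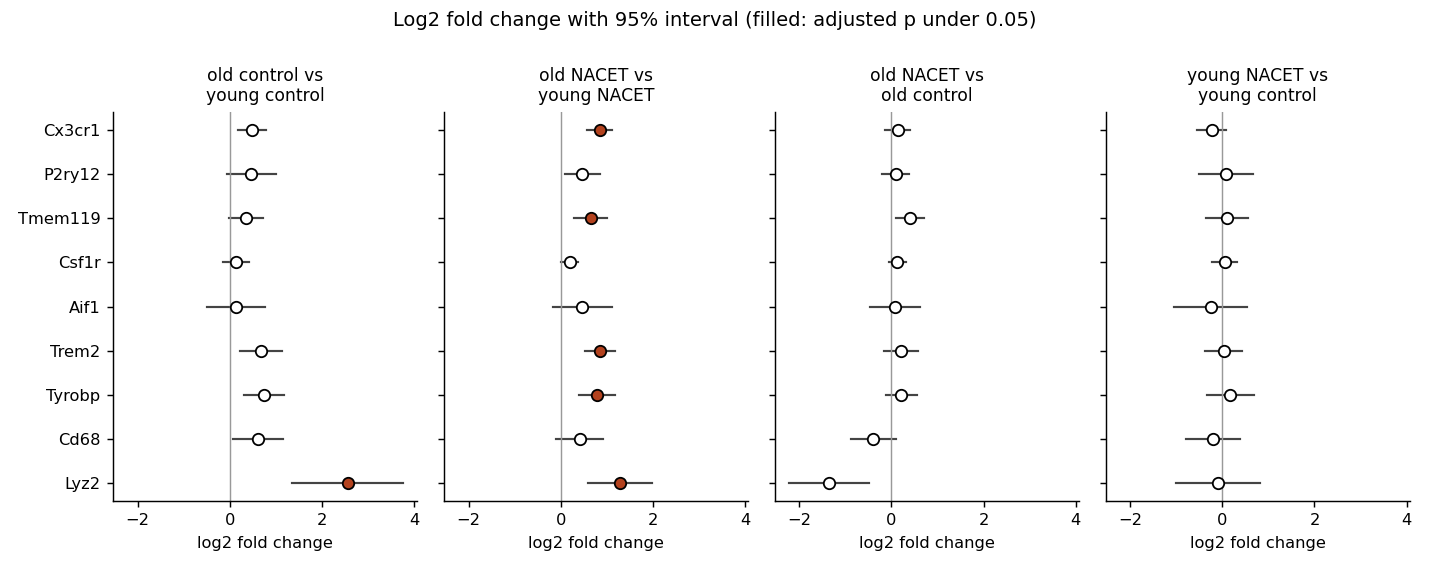
Fitted log2 fold change (points) with its 95% interval (lines) of each member in 4 comparisons, with filled points for an adjusted p under 0.05. Of the controls only Lyz2 is filled, 5 members are filled in old against young NACET mice, and none is filled for NACET against control.

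NACET against control in old mice gave 0 of 9 members called, against 0.543% of all 16562 genes tested. By the same test 2 of 9 members had an unadjusted p under 0.05, as did 14.4% of all genes, and DESeq2 also called 0 of 9. The first was Lyz2, from 15.1, 25.6, 6.40 and 4.94 CPM in old controls to between 1.85 and 8.64 CPM (median 5.11) in old NACET libraries. The groups overlapped, and the fitted change of -1.36 (SE 0.41, 95% interval -2.23 to -0.49) had a p of 0.00472 and an adjusted p of 0.143. Without old control replicate 2 it was -0.75, and without old control replicates 2 and 4 it was -1.04.

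The second was Tmem119, at 1.96, 2.35, 1.70 and 2.20 CPM in old controls and 2.38 to 3.47 CPM (median 2.67) in old NACET libraries. It was higher in 6 of 6 NACET libraries than in any control, as were 1.76% of all genes tested, and the fitted change was 0.40 (SE 0.14, p 0.0151, adjusted p 0.222). Cx3cr1 (0.13, 95% interval -0.13 to 0.40), Csf1r (0.12, -0.06 to 0.31), Trem2 (0.21, -0.16 to 0.58) and Tyrobp (0.22, -0.12 to 0.55) had intervals that span 0. Without old control replicates 2 and 4 the changes were 0.60 for Tmem119 (adjusted p 0.578), 0.22 for Csf1r and 0.13 for Trem2. Cd68 was fitted at -0.39 with an interval of -0.88 to 0.09, at -0.14 without old control replicate 2 and at -0.08 without old control replicates 2 and 4. P2ry12 and Aif1 had small fitted changes whose sign turned with the libraries used.

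Old NACET mice came from 3 age cohorts, and only the 2 mice of 668 days match the old controls. Those 2 were the highest old NACET libraries for Cx3cr1 (6.82 and 6.31 CPM), Tmem119 (2.91 and 3.47 CPM), Trem2 (3.58 and 3.27 CPM), Tyrobp (2.91 and 2.74 CPM) and Lyz2 (8.64 and 6.16 CPM). The share of all genes with the same order was not counted, so this order describes 2 libraries and is no age trend of the members. The 4 mice of 581 and 574 days ranged from 4.31 to 5.41 CPM for Cx3cr1 and from 1.92 to 2.34 CPM for Tyrobp. A younger mouse was the highest for P2ry12 (3.29 CPM, 581 days), Csf1r (14.5 CPM, 574 days) and Aif1 (1.07 CPM, 574 days). For Cd68 the 668-day mice held 2.15 and 1.68 CPM, and a 581-day mouse held 2.00 CPM. Within the 668-day mice the fitted NACET change was 0.40 for Cx3cr1 (p 0.0108), 0.61 for Tmem119 (p 0.0122), 0.52 for Tyrobp (p 0.0192) and -0.84 for Lyz2 (p 0.171). None passed the adjusted threshold there (adjusted p from 0.538 to 0.743), with edgeR fitted to 2 treated and 4 control libraries. Over all genes, 1396 of 16839 tested in that fit had an unadjusted p under 0.05.

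NACET against control in young mice gave 0 of 9 members called and 0% of all 16588 genes, and 0 members had an unadjusted p under 0.05 where 4.36% of all genes did. DESeq2 likewise called 0 of 9. The fitted changes ran from -0.25 (Aif1) to 0.17 (Tyrobp), and every interval spanned 0. The narrowest was that of Csf1r, 0.06 with a 95% interval of -0.21 to 0.33, and the widest that of Lyz2, -0.09 with -0.999 to 0.814.

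The difference between the age change under NACET and the age change in controls was tested directly as an interaction over all 20 libraries. No member passed (0 of 9, and 0% of 16993 genes), and 0 members had an unadjusted p under 0.05 where 6.19% of all genes did. DESeq2 also called 0 of 9. The closest were Cx3cr1, at 0.37 (95% interval -0.03 to 0.76, p 0.0669, adjusted p 0.819), and Lyz2, at -1.26 (-2.66 to 0.14, p 0.0759, adjusted p 0.827). That 5 members were called with age under NACET and 1 in controls is therefore not shown to be a difference between the treatments, and the NACET groups had 6 libraries against 4.

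Homeostatic and activation members were compared within each library as the mean log2 CPM of Trem2, Tyrobp, Cd68 and Lyz2 minus that of Cx3cr1, P2ry12, Tmem119 and Csf1r. This difference was -1.11 ± 0.21 (SD, n = 4) in young controls, -1.12 ± 0.19 (n = 6) in young NACET, -0.38 ± 0.43 (n = 4) in old control and -0.84 ± 0.25 (n = 6) in old NACET libraries. The old control values were -0.12, 0.09, -0.70 and -0.78 in replicate order, and the young control values -1.33, -1.07, -1.21 and -0.83. Every old control therefore lay above every young control, by little for replicates 3 and 4.

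The gap depended on Lyz2. Without it the difference was -1.23 ± 0.24 in young controls, -1.25 ± 0.21 in young NACET, -0.95 ± 0.22 in old control and -1.11 ± 0.14 in old NACET libraries, with overlapping ranges. The distance between old and young controls fell from 0.73 (SE 0.24) to 0.29, which is close to the spread within a group, and between old and young NACET mice it was 0.28 (SE 0.13) with Lyz2 and 0.14 without. The means of both sets were higher in old controls, without a test of the set means: the homeostatic mean was 1.66 ± 0.19 in young and 2.07 ± 0.04 in old controls, and that of Trem2, Tyrobp and Cd68 was 0.43 ± 0.21 and 1.13 ± 0.24.

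**Figure D4:**
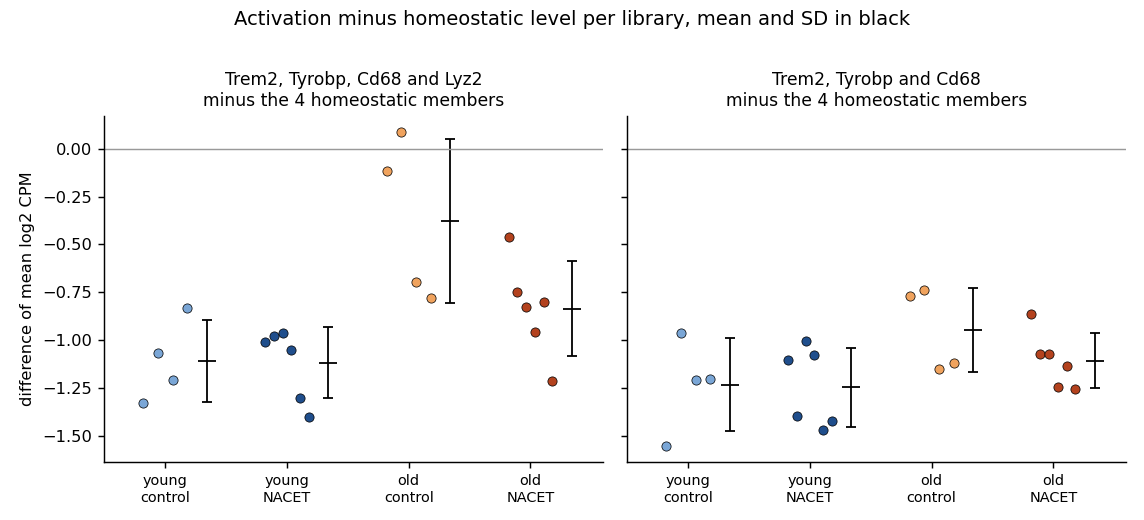
Mean log2 CPM of the activation and lysosomal members minus that of the homeostatic members per library, with all 4 activation members (left) and without Lyz2 (right), and the group mean and SD in black. With Lyz2 the 4 old controls lie above the 4 young controls, from -0.78 to 0.09 against -1.33 to -0.83, and without Lyz2 the groups overlap.

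As shares of the 9 members' summed counts, Csf1r gave 42.6% ± 2.0 in young controls (SD, n = 4), 44.7% ± 2.0 in young NACET (n = 6), 28.7% ± 6.3 in old control (n = 4) and 34.8% ± 4.0 in old NACET libraries (n = 6). Lyz2 gave 8.63% ± 4.44, 8.37% ± 3.33, 28.8% ± 13.8 and 13.8% ± 4.4 in the same order. In old control replicate 2 Lyz2 made 45.5% of the 1750 member counts. These are shares of a sum, so a higher share of one member lowers the others. With Lyz2 left out of the sum, Csf1r gave 46.7% ± 2.7 in young and 40.2% ± 2.1 in old controls, and 48.8% ± 2.2 in young and 40.3% ± 2.9 in old NACET libraries, without overlap in either pair.

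Across the 20 libraries, after each gene was centred on its group mean, 31 of 36 pairs of members had a positive Pearson r, with a median of 0.40. The closest pairs were Lyz2 with Csf1r (0.69), Tyrobp with Tmem119 (0.67) and Lyz2 with Trem2 (0.64). Pairs within the homeostatic set (median 0.45), within the activation set (0.34) and between the sets (0.42) did not form separate blocks. All genes of a library share its depth and dissection, which differed between libraries, so these values describe the libraries and carry no test.

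Likeness to the members was the r between a gene's log2 CPM and the members' mean z-score over the 20 libraries, both centred on group means. A member's z-score is its log2 CPM less its mean, divided by its SD, over the 20 libraries. Among 14971 other genes with a mean of at least 1 CPM, those most like the members were Car3 (0.82), Slc25a1 (0.82), Tmem51 (0.82), C1qa (0.81), Cpxm1 (0.81), Ctss (0.81), Erbb2 (0.80), Spns2 (0.79), Cobl (0.79) and Fam129b (0.79). C1qa, a chain of complement C1q made by microglia, and Ctss, a lysosomal protease, belong to the myeloid lists below, and the other 8 belong to none of the lists used here.

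The wider myeloid lists were read by count, against 1.42% (controls) and 4.88% (NACET) of all genes called, 16.3% and 21.1% at an unadjusted p under 0.05, and 48.2% and 49.6% fitted above 0. Of 13 pan-myeloid genes tested, 0 were called in old against young controls, where 7 had an unadjusted p under 0.05 and 12 were fitted above 0 (median 0.45). In old against young NACET mice 7 of the 13 rose: Emr1, Fcgr3, Cd14, Ly86, C1qa, C1qb and C1qc (median of the list 0.75). The 3 chains of C1q, which opens the classical complement cascade, changed by 0.75 (C1qa, adjusted p 0.00592), 0.55 (C1qb, adjusted p 0.0465) and 0.76 (C1qc, adjusted p 0.00119). Cd14, a co-receptor for bacterial lipopolysaccharide, went from 1.51 ± 0.30 CPM (SD, n = 6) to 2.82 ± 0.29 CPM (n = 6), a change of 0.84. Emr1, which encodes the macrophage antigen F4/80, was just past the threshold at 1.03 (adjusted p 0.04999). In the controls Emr1 and Ptprc, neither called, had the largest fitted changes of the list, 1.16 and 0.90.

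Of 10 other homeostatic genes tested in controls, 1 was called, higher in the old. There 4 had an unadjusted p under 0.05 and 9 were fitted above 0 (median 0.24). P2ry13 and Gpr34, uncalled, were fitted at 0.89 and 0.80 in controls. Under NACET 1 of 9 rose, Siglech, a sialic acid-binding lectin of microglia, from 1.41 ± 0.29 to 2.36 ± 0.29 CPM (SD, n = 6 each, change 0.70, adjusted p 0.0121).

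Of 13 disease-associated genes tested, the set that microglia raise around degenerating tissue, 1 rose in both age comparisons. It was Clec7a, which encodes the beta-glucan receptor dectin-1, from 0.405 ± 0.163 to 1.31 ± 0.19 CPM in controls (SD, n = 4 each, change 1.66, adjusted p 0.0133) and from 0.442 ± 0.114 to 0.957 ± 0.338 CPM under NACET (SD, n = 6 each, change 1.06, adjusted p 0.0255). The list's medians were 0.11 and -0.05. Several of its genes are made by other retinal cells as well, and Apoe was at 374 ± 83 CPM in young controls. Gpnmb and Lgals3, uncalled, were fitted at 0.29 and 1.40 with age in controls. Lgals3 was at 3.10, 11.0, 2.90 and 2.45 CPM in old controls in replicate order and at 1.26 to 2.84 CPM in young controls, with old control replicate 2 far above the other 3. It ran from 1.10 to 8.90 CPM in young NACET and from 0.880 to 14.3 CPM in old NACET libraries.

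Of 11 lysosome and phagocytosis genes, Ctss, encoding cathepsin S, rose in both age comparisons, by 0.77 in controls (9.89 ± 1.56 to 17.3 ± 1.0 CPM, SD, n = 4 each, adjusted p 0.00683) and by 0.67 under NACET (9.54 ± 1.33 to 15.7 ± 2.5 CPM, SD, n = 6 each, adjusted p 0.0015). Under NACET Mpeg1, which encodes the pore-forming perforin-2, also rose, by 0.47, while Lgmn, an asparaginyl protease, fell by 0.40 on the log2 scale. The medians of the list were 0.07 and 0.03. Genes of TREM2 and TYROBP signalling (5 tested in controls, 6 under NACET), myeloid transcription factors (7) and ligands or inhibitory partners of the members (7) had 0 called in either age comparison. At an unadjusted p under 0.05, these 3 lists had 1, 3 and 2 genes in controls and 1, 2 and 1 under NACET.

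**Figure D5:**
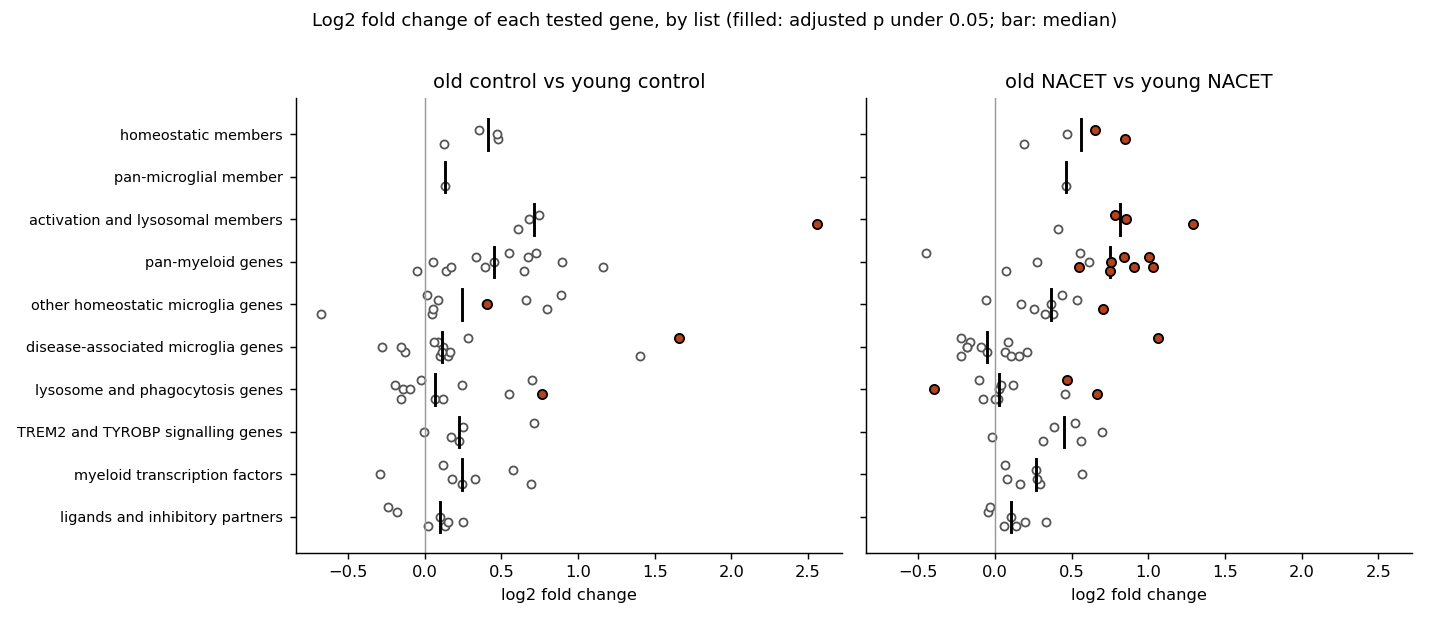
Fitted log2 fold change of each tested gene of 10 lists in old against young controls (left) and old against young NACET mice (right), with filled points for an adjusted p under 0.05 and a bar at the list's median. Pan-myeloid genes have 0 filled points on the left and 7 on the right, and the disease-associated and lysosome lists sit near 0 with Clec7a and Ctss filled in both panels.

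In old mice under NACET 0 genes of any myeloid list were called, and the called list genes were Krt5, Krt12 and Dsp of the corneal epithelial list, all lower. In young mice under NACET 0 list genes were called. Among lists of other cells, 0 dendritic cell, monocyte and cell cycle genes were called in any comparison. Few of them were tested: 5 to 6 of 8 dendritic cell, 2 to 4 of 7 monocyte and 1 to 3 of 6 cell cycle genes in the files. Old against young NACET mice had lower calls in the corneal epithelial (4 of 6 tested), red blood cell (1 of 5, Hbb-b1), retinal pigment epithelium (1 of 8, Ttr) and perivascular macrophage lists (1 of 3, Cbr2, at 6.19 ± 11.6 CPM in young and 0.43 ± 0.30 CPM in old NACET libraries). The rod list also had 1 of 8 called lower there, with 0 of 8 fitted above 0 (median -0.154). In old against young controls 0 of 8 rod genes were called and 0 of 8 were fitted above 0 as well (median -0.168). Gfap, which Muller glia raise under stress, rose with age under NACET by 0.84 (19.1 ± 5.7 to 35.2 ± 9.0 CPM, SD, n = 6 each, adjusted p 0.0104), and the uncalled change in controls was 0.37.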

How the data were processed

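The authors extracted RNA from 1 retina per mouse, made polyadenylated, unstranded libraries and sequenced them single-end. They aligned reads to mm9 with TopHat2 2.1.0 and counted reads per gene with HTSeq 0.11.2 without strand, and the deposited files hold these raw counts, 1 file per library. The annotation used for counting and the read length are not given in the sources used here. Samples were grouped by their labels. Summary lines and 1 line without a gene name (at most 0.0022% of gene counts) were left out, CPM was taken from the remaining 17.7 to 31.1 M gene counts, and log2 CPM used a prior count of 1.

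Each comparison was fitted over all genes of its own 2 groups with edgeR 4.0.16 (R 4.3.3): TMM normalization, filterByExpr, the quasi-likelihood test and Benjamini-Hochberg adjustment, with a threshold of 0.05. The interaction used all 20 libraries. DESeq2 (version 1.42.0 here, the tool the study used in another version) was an alternative, and the code was tested on simulated counts. An SE is the log2 change divided by the square root of its F statistic. Exact permutation tests (36, two-sided, SciPy 1.17.1) compared the members' log2 CPM. With 1 mouse per library, p-values measure the spread between these mice. Intervals and counts cover sampling at this depth, and reads carry no molecular identifiers.

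The members and the gene lists were chosen with earlier results of these data known. All members are named. Of each other list, the called genes with the 5 smallest p and, in controls, the uncalled genes with the 2 largest changes may be named, and the text gives those that bear on the members. Some list genes (Spi1 and Syk among them) were not analysed here. Comparisons that use the same group share its libraries, so old controls enter both the age comparison of controls and the NACET comparison in old mice. Replicate numbers did not pair the samples: the correlation of same-numbered deviations ran from -0.13 to 0.18. No pair of libraries of a group agreed within sampling noise (chi-square per degree of freedom at least 2.52). Some results on single list genes are not reported here.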

Additional observations from a re-analysis of the deposited data

Results flagged for a closer look

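Of 40 groups of member and summary values tested for a sample far from the rest, 2 stood out, and chance gives about 1 in 20. Aif1 in old NACET replicate 5 was at 1.07 CPM, where the nearest library of the group had 0.638 CPM and the lowest 0.537 CPM; these are 22 counts against 11 to 14. Lyz2 in young NACET replicate 2 was at 4.46 CPM, where the nearest had 1.92 CPM and the lowest 1.31 CPM. That library carries 79 Lyz2 counts against 25 to 46 in the other 5, and without it the age change of Lyz2 under NACET was 1.65 (adjusted p 0.0038).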

How the results depend on the processing

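Members called with age in controls (1 as reported) were 0 with a robust fit, with labelled sex as covariate, among labelled males, without old control replicates 2 and 4 (chosen after seeing the data) and with the replicate block, 1 among libraries without Xist, 6 with age averaged over control and NACET mice, and 0 to 1 when 1 library was left out. Members called with age under NACET (5) were 2 with the replicate block and 2 to 5 when 1 library was left out, where Cx3cr1 and Trem2 were called in 12 of 12 such fits, Tyrobp in 10, Tmem119 in 5 and Lyz2 in 3. NACET and the interaction gave 0 members under every alternative run. Replicate numbers did not pair the samples.

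The gap between activation and homeostatic members with age in controls (0.73) was 0.29 without Lyz2 and 0.32 as a median over genes, and 0.58 to 0.87 when 1 library was left out. With NACET in old mice (-0.46) it was -0.055 as a median.

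Small fitted changes turned sign. With age in controls Aif1 was -0.18 with the sex covariate and among males, -0.14 without Xist libraries, -0.038 without old control replicates 2 and 4, and -0.014 to 0.37 leaving out 1 library. With NACET in old mice Aif1 was -0.080 with the block, -0.090 in 668-day mice, -0.096 with cohort as covariate and -0.094 to 0.23 leaving out 1 library, and P2ry12 was -0.049 without old control replicates 2 and 4. With NACET in young mice P2ry12 was -0.035 with the block, -0.18 among males and -0.061 to 0.33 leaving out 1 library, Lyz2 was 0.070 with the block, 0.50 among males, 0.022 in the exact test and -0.46 to 0.50, Trem2 was -0.16 with the batch tag and -0.044 to 0.11, and Csf1r -0.041 to 0.16. In the interaction P2ry12 was -0.0020 with a filter at 1 CPM, -0.011 with the sex covariate and -0.25 to 0.14, Aif1 was -2.7e-05 with the block, Tyrobp was -0.00065 with the sex covariate, -0.24 among males and -0.087 to 0.16, Csf1r was -0.038 to 0.17 and Cd68 -0.37 to 0.046. The cause of these shifts was not tested.

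Over all genes, calls ranged from 53 to 2173 with age in controls, 0 to 373 for NACET in old mice, 0 to 8 in young mice, 248 to 1325 with age under NACET and 0 to 86 for the interaction. With a median of 12.5 to 86 counts per library for every member but Csf1r, changes of low members were hard to resolve.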
